A study of Rattus norvegicus with 7 samples.

Results

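The let-7 family is a set of small RNAs that share 1 seed, the stretch at bases 2 to 8 with which a miRNA pairs to its target mRNAs. Its members on this array were taken by name: rno-let-7a-5p, rno-let-7b-5p, rno-let-7c-5p, rno-let-7d-5p, rno-let-7e-5p, rno-let-7f-5p, rno-let-7i-5p and rno-miR-98-5p, where rno stands for rat and 5p for the 5′ arm of the hairpin. They are called let-7a to let-7i and miR-98 from here on. These were 8 of 719 miRNAs on the array. Each had 2 probes, and all 16 probes were well above background on all 7 arrays.

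The samples were rat primary skeletal muscle cells (RSkMC), bought from a cell collection, isolated from limb muscle of newborn rats and frozen at the second passage. Differentiation was induced in medium with horse serum, and total RNA was taken on day 11. In the IL-6 group, 4 samples had recombinant interleukin-6, a cytokine that working muscle releases, at 1 ng/ml. In the control group, 3 samples were untreated per the series design, although the growth protocol entered for them also names IL-6. No genotype or strain is given. Whether replicates came from separate cultures is not stated, and the spread behind the p-values may therefore be technical. Each sample was run on its own 1-colour array.

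The let-7 miRNA was first known as a timing gene of the nematode Caenorhabditis elegans. In mammals its many copies are held low in early cells by Lin28 proteins, which bind the let-7 precursors and block their maturation, and they accumulate as cells differentiate. Known mammalian targets include the RAS genes, Hmga2 and Lin28 itself, and in human cells the IL6 mRNA has been described as a let-7 target.

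The mature sequences are shown to make plain how little separates the members. They are those of RefSeq for the rat build GRCr8, written 5′ to 3′ with the seed in capitals.
let-7a-5p: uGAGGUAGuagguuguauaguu
let-7b-5p: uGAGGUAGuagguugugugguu
let-7c-5p: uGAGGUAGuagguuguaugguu
let-7d-5p: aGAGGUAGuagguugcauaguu
let-7e-5p: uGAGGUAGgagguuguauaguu
let-7f-5p: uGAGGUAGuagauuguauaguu
let-7i-5p: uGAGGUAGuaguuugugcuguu
miR-98-5p: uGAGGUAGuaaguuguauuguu

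All 8 are 22 bases long and all differences lie outside the seed. Counted from the 5′ end, with let-7a first, let-7c differs by A19G, let-7e by U9G and let-7f by G12A. The other members differ from let-7a at more positions: let-7b by A17G and A19G, let-7d by U1A and U16C, miR-98 by G11A and A19U, and let-7i by G12U, A17G, U18C and A19U. Between let-7b and let-7c the difference is G17A alone. Among the rat mature miRNAs of the RefSeq table, let-7g-5p was the only other one with this seed, and the array had no probe for it.

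The members come from 11 places in the GRCr8 genome, several of them close together. The mature let-7b lies at chr7:118684044-118684065 on the plus strand, 408 bases downstream of a let-7c copy at chr7:118683636-118683657. A second let-7c copy lies at chr11:29688127-29688148. On chromosome 17, let-7a (chr17:16320145-16320166), let-7f (chr17:16320508-16320529) and let-7d (chr17:16322273-16322294) lie within a long non-coding RNA. On chromosome X, let-7f (chrX:24460052-24460073) and miR-98 (chrX:24460663-24460684) lie within Huwe1, the gene of a ubiquitin ligase. The second let-7a copy is at chr8:50805219-50805240, within Mir100hgl and 6912 bases from miR-100, and let-7e is at chr1:67350243-67350264, within Spaca6 and between miR-99b and miR-125a. The annotation places let-7i at chr7:60527935-60527956 on the minus strand, while the others are on the plus strand. A mature miRNA with 2 copies is measured as 1 signal, so the copies could not be read apart.

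The probes are shown because a member is told from its relatives by a few bases. They are given as the files have them, 5′ to 3′, with capitals over the positions at which the target differs from let-7a.
let-7a probe: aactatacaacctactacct
let-7b probe: aacCaCacaacctactacc
let-7c probe: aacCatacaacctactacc
let-7d probe: aactatGcaacctactacc
let-7e probe: aactatacaacctCctacc
let-7f probe: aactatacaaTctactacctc
let-7i probe: aacAGCacaaActactacctc
miR-98 probe: aacAatacaacTtactacctca

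Each of these is the brighter of the member's 2 probes; the second probe of each is 1 base shorter. Against the nearest other member, the probes of let-7a, let-7b, let-7c, let-7d, let-7e and let-7f have 1 mismatch, those of miR-98 have 2 and those of let-7i have 3. The let-7i probes have only 2 mismatches with let-7g, which is not measured here. The nearest relative of the let-7b probe is let-7c. How much signal a probe took from a relative was not tested. The probes differ in length and base content, so the signals below are compared between samples for 1 member and not between members.

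Across the 7 arrays, the number of detected miRNAs was 179 to 207 on IL-6 arrays and 174 to 185 on control arrays. No miRNA spot was saturated. All arrays lay on 1 slide with 1 scan time. The 4 IL-6 arrays filled row 2 of the slide and the 3 control arrays row 1, so that an effect of the row and one of IL-6 cannot be told apart. The labelled cell type was not borne out by miR-1, miR-133a, miR-133b and miR-206, which were undetected on all 7 arrays. So were miR-208a, miR-208b and miR-499, which complete the list of 7 muscle miRNAs but on which this reading does not rest. The summed signal of the 7 miRNAs was 4.00 to 12.1 on IL-6 arrays and 5.03 to 9.69 on control arrays. All 5 miRNAs listed for fibroblasts and smooth muscle (miR-143-3p, miR-145-5p, miR-199a-3p, miR-199a-5p and miR-214-3p) had detection calls throughout, with a summed signal of 20952 to 24265 on IL-6 arrays and 23538 to 25290 on control arrays. Of 6 blood miRNAs 5 were undetected throughout, and miR-223-3p had a detection call on 1 array, of the IL-6 group. The markers of endothelium (1), epithelium (5) and nerve (3) were undetected. Their part in the results was not tested. In such bulk samples, fewer cells of a type and less RNA per cell cannot be told apart.

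The arrays with and without IL-6 were compared to ask whether the cytokine changed the level of any let-7 member. With IL-6, rno-let-7b-5p rose by 18.3%, and none of the other 7 members passed the test in either direction. The test was limma's moderated test on log2 signal, with Benjamini-Hochberg adjustment over 181 miRNAs and a threshold of 0.05. Of the 8 members 1 was called higher, where 9 of the 181 (4.97%) were, and 0 were called lower, where 8 of the 181 (4.42%) were. These 9 and 8 became 7 and 11 under quantile normalization and 4 and 0 with spike-in scaling. They became 0 and 0 without scaling, with the slide column as a block, and without IL-6 replicate 3 or control replicate 1. With 8 members, a count of 1 does not set the family apart from the rest. At an unadjusted p under 0.05 there were 3 members, let-7b, let-7c and let-7e, where 49 of the 181 (27.1%) passed that mark. That count of members was 1 without control replicate 1 or control replicate 2, 4 without IL-6 replicate 1, and 7 with IL-6 replicate 1 and control replicate 3 both left out. The median log2 fold change was 0.06 over the members and 0.02 over all tested miRNAs. Fold changes were positive for 7 of the 8 members, against 104 of the 181 (57.5%). The signs of let-7a, let-7d, let-7f and miR-98 turned under other scalings, and those of let-7c and let-7i turned when the 75th percentile was taken over all probes.

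**Figure D1:**
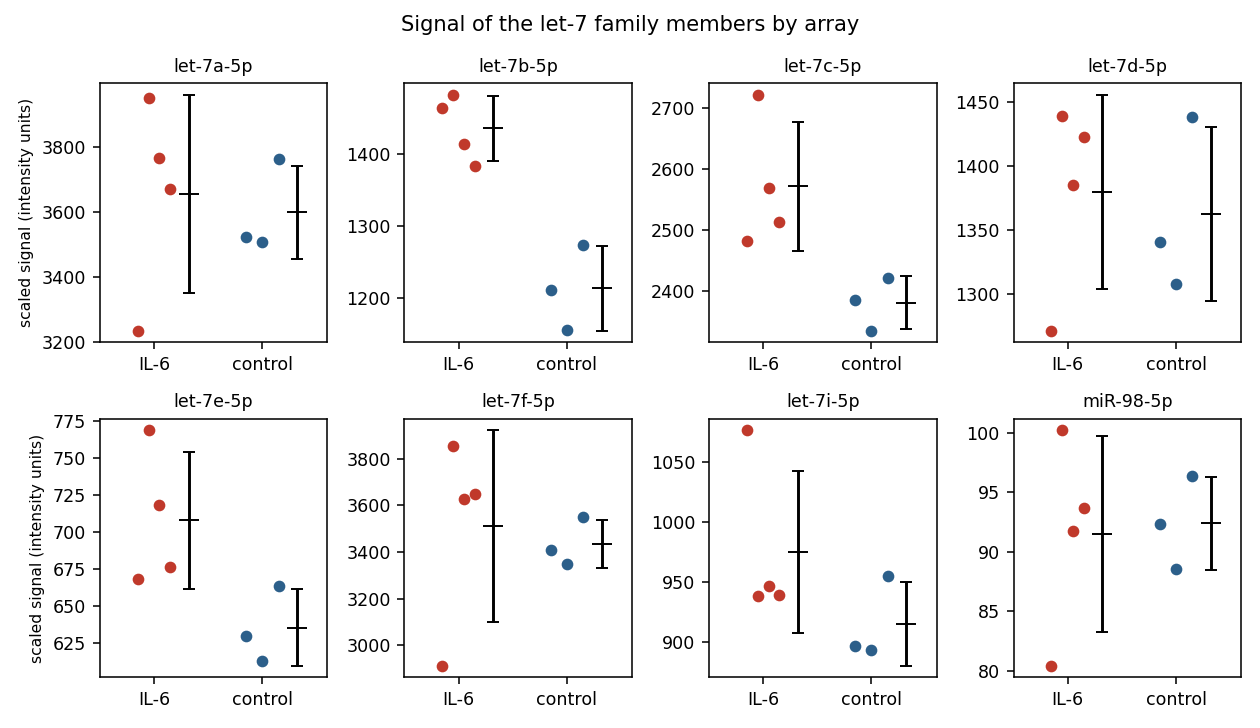
Scaled signal (intensity units, linear axes that do not start at 0) of each let-7 member on 4 IL-6 arrays (red, left) and 3 control arrays (blue, right). Bars are the mean and SD of each group. With the brighter probe of each member, shown here, the IL-6 arrays lie above all control arrays for let-7b, let-7c and let-7e. They overlap them for the other members.

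The let-7b miRNA is transcribed close to a let-7c copy and is known in mouse neural stem cells for lowering Hmga2. The scaled signal of rno-let-7b-5p was 1465, 1482, 1414 and 1383 intensity units on the IL-6 arrays and 1212, 1156 and 1274 units on the control arrays. Every IL-6 array was above every control array. The mean was 1436 ± 45.5 units with IL-6 and 1214 ± 58.8 units in control (SD, n = 4 and 3). The log2 fold change was 0.24 ± 0.04 (SE), with an adjusted p of 0.0224 by limma. An exact two-sided permutation test over the 35 ways to split the arrays gave p = 0.0286, the smallest it can give. The difference was larger than the spread between arrays of a group, which may be technical. That permutation p is not adjusted for let-7b having the largest fold change of the family. The difference stayed positive in all 26 other ways of processing, between 0.10 and 0.43, but passed the threshold in 10 of them. Other floors, detection filters and limma options left the value at 0.24, so its sign could not turn there. The replicate block gave the value found without IL-6 replicate 4 (0.26), and the column block that without IL-6 replicate 2 (0.23). The call was lost without control replicate 1 (0.24, adjusted p = 0.0802), control replicate 2 (0.21, adjusted p = 0.0822), IL-6 replicate 3 (0.25, adjusted p = 0.0699) or IL-6 replicate 4 (0.26, adjusted p = 0.0505), and with slide column as a block (0.23, adjusted p = 0.0962). Within the 3 slide columns that held both groups, the log2 difference between the IL-6 and the control array was 0.27, 0.29 and 0.12.

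**Figure D2:**
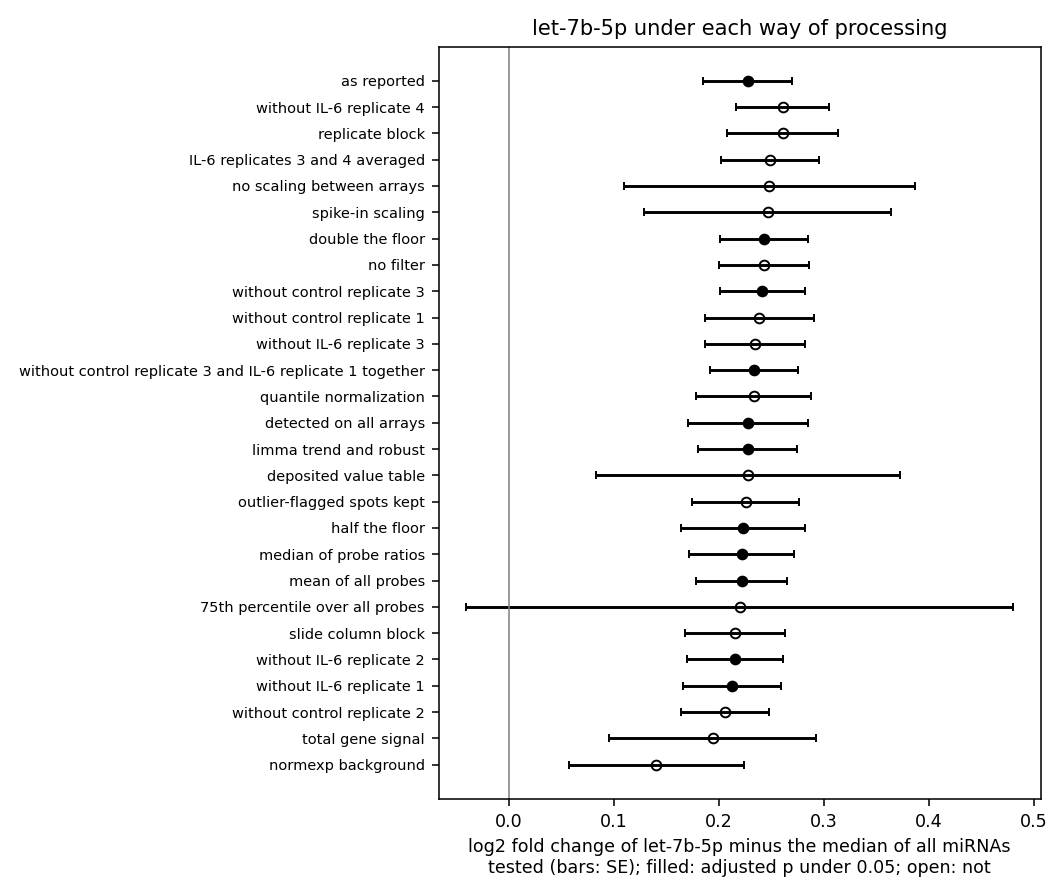
Log2 fold change of let-7b (IL-6 minus control, bars are SE) under each way of processing, as the difference from the median of all miRNAs tested in that way. Values lie between 0.14 and 0.26, and filled points are those with an adjusted p under 0.05 by limma. Both the bars and the fill belong to the fold change itself, not to its difference from the median.

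The let-7c and let-7e miRNAs were next in size of difference, and neither passed the test. A copy of let-7c lies beside let-7b on chromosome 7 and a second on chromosome 11. The rno-let-7c-5p signal was 2483, 2721, 2569 and 2513 units with IL-6 and 2385, 2336 and 2422 units in control. Its log2 fold change was 0.11 ± 0.04, with an adjusted p of 0.135 by limma. The lowest IL-6 array was above the highest control array, though by a small margin. For rno-let-7e-5p, which shares a locus with miR-99b and miR-125a, the signal was 668, 769, 719 and 676 units with IL-6 and 630, 613 and 664 units in control. Its log2 fold change was 0.15 ± 0.06, with an adjusted p of 0.154 by limma. Here too the groups did not overlap, with IL-6 replicate 1 just above control replicate 3. Within the 3 slide columns that held both groups, the log2 difference between the IL-6 and the control array was 0.06, 0.14 and 0.05 for let-7c and 0.09, 0.23 and 0.03 for let-7e. Neither passed the threshold in any of the 26 other ways of processing. In all, 3 of the 8 members had every IL-6 array above every control array, against 21 of the 181 (11.6%). For let-7c and let-7e this held for the brighter probe alone. The groups of their second probes overlapped, with log2 fold changes of 0.06 ± 0.06 for let-7c and 0.12 ± 0.07 for let-7e.

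The members with copies in the chromosome 17 and chromosome X loci, let-7a, let-7d, let-7f and miR-98, had small mean differences and overlapping groups. The let-7a signal also includes a copy on chromosome 8, so it is not that of 1 locus. The rno-let-7a-5p signal was 3235, 3952, 3767 and 3672 units with IL-6 and 3524, 3509 and 3765 units in control. IL-6 replicate 1 was the lowest of the 7 arrays and IL-6 replicate 2 the highest. The log2 fold change was 0.02 ± 0.07, with an adjusted p of 0.909 by limma. For rno-let-7f-5p the same arrays were at the ends: the signal was 2912, 3853, 3625 and 3650 units with IL-6 and 3407, 3349 and 3550 units in control. Its SD was 411 units with IL-6 and 103 units in control, the largest SE of the family went with it, and the log2 fold change was 0.02 ± 0.10, with an adjusted p of 0.909 by limma.

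For rno-let-7d-5p, described in human lung as a regulator of HMGA2, the signal was 1272, 1440, 1385 and 1423 units with IL-6 and 1341, 1308 and 1439 units in control. The log2 fold change was 0.02 ± 0.06, with an adjusted p of 0.899 by limma. The rno-miR-98-5p signal, that of a family member under another name, was 80.4, 100.2, 91.7 and 93.7 units with IL-6 and 92.3, 88.5 and 96.3 units in control. The log2 fold change was -0.02 ± 0.08, with an adjusted p of 0.909 by limma. Both again had IL-6 replicate 1 lowest and IL-6 replicate 2 highest. Without IL-6 replicate 1 the log2 fold changes were 0.08 for let-7a, 0.06 for let-7d, 0.11 for let-7f and 0.04 for miR-98, and none passed the test, with adjusted p between 0.126 and 0.597.

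The rno-let-7i-5p miRNA, known in human bile duct cells for lowering TLR4, had its highest value on the array on which 4 other members were lowest. Its signal was 1076, 939, 946 and 939 units with IL-6 and 896, 894 and 955 units in control. That array was IL-6 replicate 1. The other 3 IL-6 arrays lay within the range of the controls. The log2 fold change was 0.09 ± 0.06, with an adjusted p of 0.422 by limma, and it was 0.04 without IL-6 replicate 1 (adjusted p = 0.423).

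**Figure D3:**
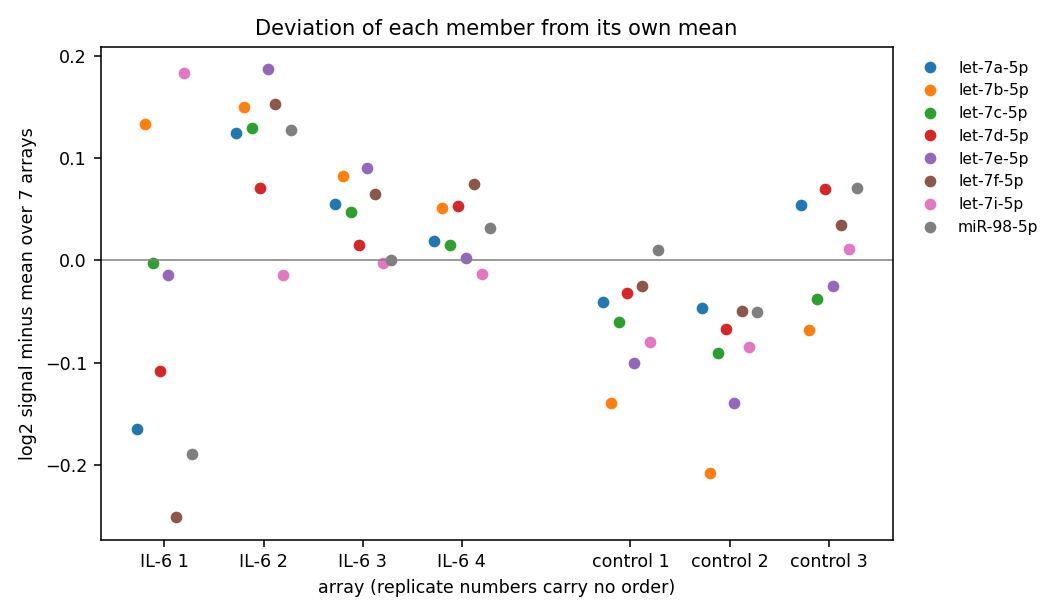
Log2 signal of each member minus its own mean over the 7 arrays, by array, with the 4 IL-6 arrays left of the 3 control arrays and 1 colour per member. On IL-6 replicate 1 the members spread from -0.25 (let-7f) to 0.18 (let-7i), wider than on any other array.

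The second probes gave a check within the same arrays, though a narrow one. Each has the sequence of the brighter probe less 1 base and the same nearest relative. Signal from a relative or an effect of the slide row would enter both probes, so the check cannot reach these. Over 268 probes well above background on all arrays, limma called 1 of the 16 member probes, the brighter let-7b probe, higher (0.24 ± 0.06, adjusted p = 0.0406), where 11 of the 268 (4.1%) were called higher. The signal of that probe is the let-7b level already tested above, so this call adds no new values. Among member probes 0 were called lower, where 9 of the 268 (3.36%) were. These 11 and 9 became 20 and 0 with spike-in scaling, 12 and 16 under quantile normalization, 29 and 12 with the slide column as a block, 0 and 2 when IL-6 replicate 3 was left out, 23 and 5 when control replicate 3 was, and 53 and 29 with IL-6 replicate 1 and control replicate 3 both left out. The second let-7b probe had 1041, 1053, 948 and 954 units with IL-6 and 844, 842 and 889 units in control. Its groups did not overlap either, and its log2 fold change was 0.22 ± 0.06, with an adjusted p of 0.0639 by limma. The groups were apart for 4 member probes, both of let-7b and the brighter ones of let-7c and let-7e, against 42 of the 268 (15.7%). The probes of a member differed in log2 fold change by between -0.01 (miR-98) and 0.07 (let-7d). The second probes of let-7d (-0.05 ± 0.08) and let-7f (-0.03 ± 0.12) had the opposite sign to the brighter ones, with SEs larger than either value. The log2 ratio of a member's probes had an SD over the arrays of between 0.03 (miR-98) and 0.07 (let-7f), where the levels themselves had SDs of 0.07 to 0.14.

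**Figure D4:**
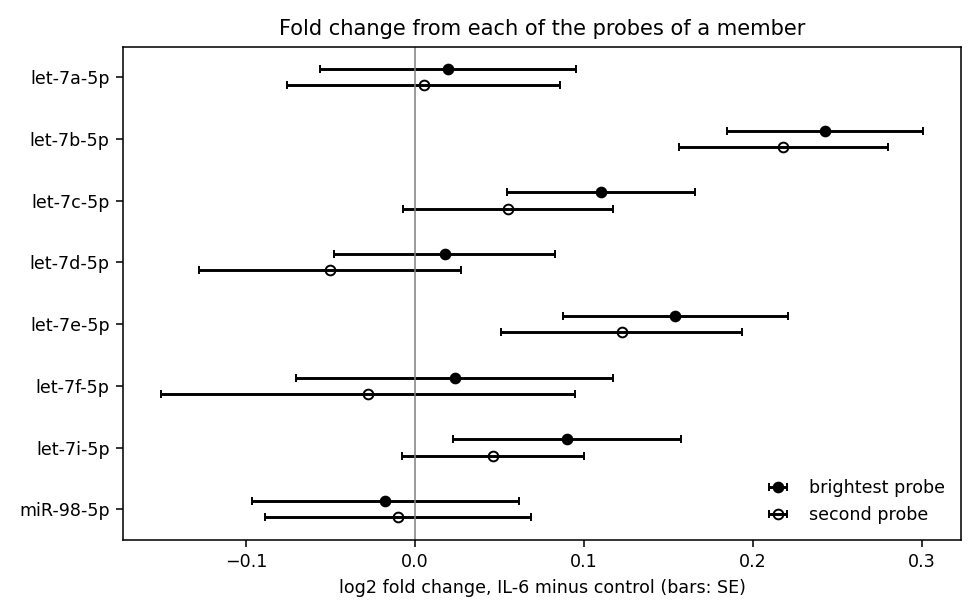
Log2 fold change (IL-6 minus control, bars are SE) from the brighter (filled) and the second (open) probe of each member. The let-7b probes lie at 0.24 and 0.22, and those of let-7a, let-7d, let-7f and miR-98 lie between -0.05 and 0.02.

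Whether let-7b differed from its relatives was asked with the ratio of each member to let-7b on the same array, which needs no scaling between arrays. The let-7b signal and its noise enter all these ratios, and let-7b was chosen for them with its fold change known. The ratio of let-7a to let-7b was 2.21, 2.67, 2.66 and 2.65 with IL-6 and 2.91, 3.04 and 2.96 in control. All 4 IL-6 arrays were lower than all 3 controls, with a log2 difference of -0.22 ± 0.09 and an adjusted p of 0.0467 by limma. For miR-98 the log2 difference was -0.26 ± 0.09 (adjusted p = 0.0253), and for let-7d it was -0.23 ± 0.09 (adjusted p = 0.0373). The ratios of let-7f (-0.22 ± 0.10, adjusted p = 0.0657), let-7i (-0.15 ± 0.09, adjusted p = 0.124), let-7c (-0.13 ± 0.08, adjusted p = 0.163) and let-7e (-0.09 ± 0.08, adjusted p = 0.367) did not pass.

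Of the 7 ratios 3 were called lower with IL-6, where 94 of all 180 ratios to let-7b (52.2%) were, and 0 were called higher, where 1 of the 180 (0.556%) was. All 7 had every IL-6 array below every control array, where 91 of the 180 (50.6%) had. The share of calls among the members was no higher than among all ratios in that fit. The 94 became 79 without IL-6 replicate 1, 30 without IL-6 replicate 2, 31 without control replicate 2, 55 without control replicate 1, 26 with total gene signal, 0 with normexp background, and 679 of 718 with no filter on detection. The number of member calls also changed with single arrays left out: without IL-6 replicate 1, IL-6 replicate 2, control replicate 1 or control replicate 2 there were 0, and without IL-6 replicate 3 or control replicate 3 there was 1. Between let-7c and let-7b, which differ by 1 base and share a locus, the ratio was 1.70, 1.84, 1.82 and 1.82 with IL-6 and 1.97, 2.02 and 1.90 in control.

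**Figure D5:**
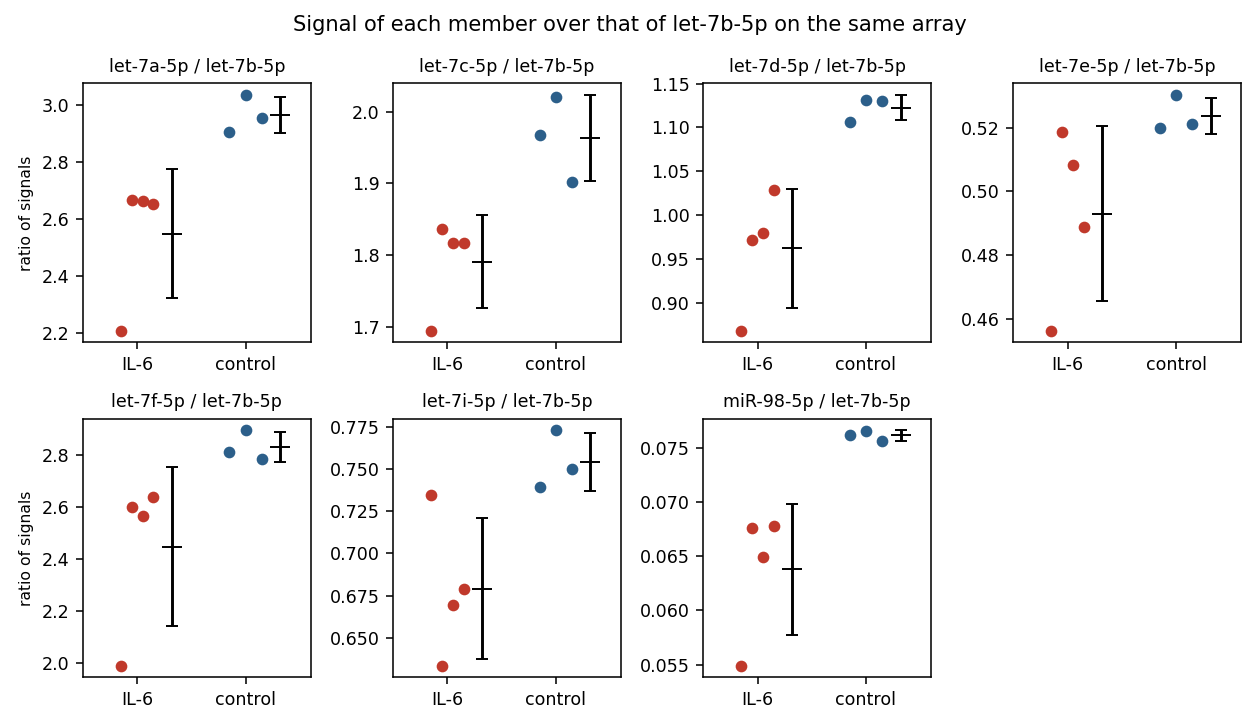
Ratio of the signal of each member to that of let-7b on the same array (linear axes that do not start at 0), on 4 IL-6 arrays (red, left) and 3 control arrays (blue, right), with mean and SD. All 4 IL-6 arrays lie below all 3 control arrays in each panel, and IL-6 replicate 1 is the lowest point in each panel but that of let-7i.

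Likeness of pattern was measured as the root-mean-square difference of log2 levels over the 7 arrays, each centred on its own mean. Of 28 pairs of members the closest were let-7a with miR-98 (0.03), let-7c with let-7e (0.04) and let-7a with let-7d (0.04). The farthest apart were let-7f with let-7i (0.18) and let-7b with let-7f (0.17). The neighbours let-7b and let-7c stood at 0.08. Among 173 other tested miRNAs, none was nearer than a fellow member to let-7a, let-7c, let-7e, let-7f or miR-98. For let-7b the nearest was miR-152-3p (0.07), which was itself called higher (log2 fold change 0.19, adjusted p = 0.0224 by limma), and for let-7d it was miR-194-5p (0.03). For let-7i, 38 of the 173 were nearer than any member, led by miR-483-5p (0.04). The nearest outside the family were miR-196a-5p for let-7a, miR-26a-5p for let-7c and let-7e, miR-495 for let-7f and miR-329-3p for miR-98. These values describe 7 arrays that all members share. The member probes have 1 to 3 mismatches with the nearest other member. How much of the likeness comes from signal of a relative was not tested.

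The neighbours of let-7 in its genomic clusters, the miR-99, miR-100 and miR-125 families, had small differences. Of 11 such miRNAs on the array 9 were tested and 0 were called by limma in either direction, where 17 of the 181 (9.39%) were, so a count of 0 among 9 does not set them apart. Fold changes were positive for 4 of the 9, against 104 of the 181 (57.5%), with a median of -0.01 and a range from -0.04 to 0.05. For miR-99b-3p only IL-6 replicate 3 (16.4 units) was above the floor of 15.8 units used for all signals. For miR-125b-2-3p only control replicate 1 (16.5 units) was, so each of these signs rests on 1 array. The smallest unadjusted p by limma among the 9 was 0.234. Named here for their signal are 4 of them. The first, miR-125b-5p, had 12522 ± 370 units with IL-6 and 12902 ± 353 units in control (SD, n = 4 and 3; -0.04 ± 0.03, adjusted p = 0.505). For miR-99a-5p the log2 fold change was -0.03 ± 0.04 (adjusted p = 0.715). For miR-125a-5p, which lies 446 bases from let-7e, it was -0.01 ± 0.03, and for miR-99b-5p, 173 bases on the other side, it was -0.01 ± 0.05 (adjusted p = 0.909 for both).

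The opposite arms of the let-7 hairpins, which are usually degraded, were near background. Of 9 such arms on the array 0 qualified for the test and 7 were detected on no array. The exceptions were let-7a-1-3p, detected on 2 IL-6 arrays and 0 control arrays, and let-7d-3p, detected on 2 IL-6 arrays and 1 control array. Their 32 probes never reached the mark for well above background, and the highest signal was 16.7 units, for let-7d-3p. The array also carried miR-3596a, miR-3596b, miR-3596c and miR-3596d, of which the annotation places the first, the second and miR-3596c over let-7a, let-7d and let-7e. These 4 were added after the contents of the array were seen. They were detected on 0 arrays, with a highest signal of 1.00 unit.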

How the data were processed

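MicroRNA levels were measured in 4 IL-6 and 3 control samples on 1-colour Agilent arrays with 1730 probes. The deposited scanner files hold background-subtracted spot intensity on a linear scale, made with Feature Extraction 10.10.1.1 and not scaled between arrays, per the file headers. On all 15095 spots of each array the value table the authors deposited holds the intensity column for total probe signal unchanged (tolerance 0.001), so it is linear and neither centred nor scaled. Its medians run from -1.35 to 0.10.

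Control spots and outlier-marked spots (2.88% to 3.84% of 14380) were left out and the spots of a probe averaged. Arrays were scaled to their 75th percentile, taken over the 268 probes that stood well above background on every array. Scaled values under 15.8 intensity units were raised to that floor before taking log2. Each miRNA took its brightest probe. The 181 miRNAs with detection calls on all arrays of 1 or both groups were tested. Groups were compared with limma 3.58.1 (lmFit and eBayes) in R 4.3.3, adjusted by Benjamini-Hochberg. The number of arrays limits the precision, with a median SE of 0.07 over the tested log2 fold changes.

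The members and lists were chosen with earlier results of these data known. All members were named. Of each other list all tested miRNAs were to be named if there were at most 8, otherwise those past the threshold and then the 4 brightest. The files place probes on rn4, per the file headers. Sequences and positions printed are from RefSeq tables of GRCr8. Alternatives were other scalings, background, probe summaries, floors, filters, limma options and blocks, and fits that omit 1 array. Using the mean of IL-6 replicates 3 and 4 in place of both, dropping IL-6 replicate 1 and control replicate 3 together, and the column block for the ratios, were choices made after seeing the data.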

Additional observations from a re-analysis of the deposited data

Results flagged for a closer look

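Among the 4 IL-6 arrays, 31 quantities of the family and its cluster neighbours were checked for 1 array far from the other 3, and 5 had one. On IL-6 replicate 1 the log2 level of let-7i was 10.07, where the other 3 IL-6 arrays had 9.87 to 9.89. On the same array the log2 ratio to let-7b was 1.14 for let-7a (1.41 to 1.42 on the others), 0.76 for let-7c (0.86 to 0.88) and 0.99 for let-7f (1.36 to 1.40). These ratios share the let-7b signal of that array. The log2 level of miR-99b-3p was 4.04 on IL-6 replicate 3, while the other 3 IL-6 arrays were at the floor of 3.98. With 3 values at the same floor any higher value would stand apart. The other 4 lie on 1 array, and 3 of them share its let-7b signal, so they are not separate events. Their count can therefore not be set against the rate of about 1 in 20 that chance gives for a single quantity.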

How the results depend on the processing

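The let-7b difference kept its direction in all 26 alternatives, of which other floors, detection filters and limma options left the fold change itself unchanged. Relative to the median of all tested miRNAs, which moved to -0.12 when all probes entered the 75th percentile, 0.17 unscaled, 0.18 under spike-in scaling and 0.20 for the authors' value table, it was between 0.14 and 0.26. The adjusted p by limma, which belongs to the fold change without that subtraction, ran from 0.0176 to 1. Leaving out 1 array gave a log2 fold change of 0.21 to 0.28, with an adjusted p of 0.0291 to 0.0822, and the call held in 3 of 7 such fits. The count of member calls was 0 in place of 1 with the 75th percentile over all probes, quantile normalization, spike-in scaling, no scaling, normexp background, total gene signal, the value table, no filter (719 miRNAs tested), outlier spots kept, the replicate or column block, and IL-6 replicates 3 and 4 averaged, with 0 to 2 members at an unadjusted p under 0.05. Leaving out 1 array gave 0 to 1. Calls among all tested miRNAs, 17 in the report, numbered 0 with the 75th percentile over all probes (1 at an unadjusted p under 0.05), no scaling (29), normexp (7), the value table (28), no filter (41) and the column block (52), 3 with the replicate block, 4 with spike-in scaling, 5 with total gene signal, 6 with IL-6 replicates 3 and 4 averaged, 11 with a higher floor (31.6 units), 30 with IL-6 replicate 1 and control replicate 3 both left out, and 0 to 17 with 1 array left out. Probe calls were 0 in place of 1 with all probes in the 75th percentile, the median of probe ratios, quantile, spike-in or no scaling, no filter, either block, and IL-6 replicates 3 and 4 averaged (0 to 5 member probes at an unadjusted p under 0.05), 2 with limma's trend and robust options, 3 with IL-6 replicate 1 and control replicate 3 both left out, and 0 to 1 with 1 array left out. Ratio calls, 3 in the report, were 1 with the value table or a lower floor (7.90 units), 6 with no filter, 0 with normexp, total gene signal, or with both IL-6 replicate 1 and control replicate 3 left out (0, 2 and 0 at an unadjusted p under 0.05), and 0 to 4 with 1 array left out. Scaling by 1 factor per array cancels in the ratios of the members, so scaling alternatives are not given for them. Quantile normalization does not cancel in that way, and its ratios are not given either. In every fit given, the ratios of the 7 members to let-7b had lower values with IL-6. As let-7b was chosen with its fold change known, the largest of the family, that direction followed from the choice.

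Several small fold changes turned sign, none with a call. When all probes entered the 75th percentile they were -0.12 for let-7a, -0.031 for let-7c, -0.12 for let-7d, -0.12 for let-7f and -0.051 for let-7i. The mean of all probes gave -0.016 for let-7d and -0.0021 for let-7f. The median of probe ratios gave -0.0079 for let-7a, -0.010 for let-7d and -0.0040 for let-7f. With outlier spots kept they were -0.0046, -0.011 and -0.011, and with the column block -0.019, -0.0035 and -0.024, for the same 3 members. For let-7d, quantile normalization gave -0.0095 and total gene signal -0.0098. For miR-98 the value was 0.17 in the value table, 0.16 without scaling, 0.17 with spike-in scaling, 0.044 with normexp and 0.074 with IL-6 replicate 1 and control replicate 3 both left out. The second probes of let-7d and let-7f gave 0.13 and 0.15 without scaling, 0.13 and 0.16 with spike-in scaling, and 0.042 and 0.13 with IL-6 replicate 1 and control replicate 3 both left out. Leaving out 1 array gave -0.019 to 0.077 for let-7a, -0.011 to 0.057 for let-7d, -0.024 to 0.11 for let-7f, -0.063 to 0.043 for miR-98, -0.081 to 0.014 for the second let-7d probe and -0.085 to 0.094 for the second let-7f probe. The cause of these changes was not tested.

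The labels do not tie a replicate number to a shared culture or batch. Deviations from the group means correlated at 0.52, -0.18 and 0.26 between same-numbered samples, and the first of these pairs also shared a slide column. Between IL-6 and control arrays of the same slide column they correlated at 0.52, 0.19 and 0.13. With the column block, added for the ratios after seeing the data, 3 ratios were called, those of let-7a, let-7f and miR-98, while let-7d had an adjusted p of 0.0557. In that fit limma gave every member ratio the same SE (0.10), from a variance pooled over all ratios. The ratios share the let-7b signal and are not independent, so these p-values may be too small. The let-7b level itself was not called with this block (0.23, adjusted p = 0.0962 by limma). With the replicate block, in which IL-6 replicate 4 has no partner, the let-7b log2 fold change was 0.26 (adjusted p = 0.117).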
